A study of Homo sapiens with 6 samples.

Results

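The insulin-like growth factor (IGF) genes described here are IGF2, which encodes a secreted growth factor, the receptor genes IGF1R and IGF2R, and the binding protein genes IGFBP3, IGFBP4 and IGFBP6. All 6 listed genes were found, by Ensembl identifier and symbol, among the 11081 gene rows of the RNA-seq table. They were selected on measured values of the same comparison, the FPKM of the 2 groups, in which IGF2 stood among the genes with the largest rise, so their levels and differences are a description and no p-value is given for them. The cells were T24, an established human bladder cancer line, grown in medium with fetal bovine serum. In 3 libraries the cells stably carried a lentiviral short hairpin RNA against the long noncoding RNA BLACAT3 (shBLACAT3, labelled as knockdown), and in the 3 others a control hairpin (shControl, labelled as wild type). Both groups had been selected with puromycin, and the labels do not say how many hairpin sequences or clones were used or whether the replicates were separate cultures. The comparison asked which genes differ in level when BLACAT3 is knocked down.

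IGF2 and its relative IGF1 act on IGF1R, a receptor tyrosine kinase that signals through insulin receptor substrate proteins to the PI3K-AKT and RAS-MAPK pathways. IGF2R, the mannose 6-phosphate receptor, takes IGF2 up for degradation, carries no kinase and sorts lysosomal enzymes. The binding proteins are secreted, hold IGFs away from IGF1R and are cut by proteases that set the ligand free. IGFBP6 prefers IGF2 over IGF1, IGFBP3 is the main carrier in serum, and IGFBP4 is known as an inhibitor of IGF action that the protease PAPPA cuts. IGF2 is an imprinted gene and is expressed again in many cancers.

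Levels are in FPKM, a count of sequenced fragments divided by transcript length and by library size, with 1 value per gene and library and no read counts behind them, so the depth is unknown. The listed values summed to 211958 to 226953 FPKM in shBLACAT3 libraries and to 220543 to 225122 in shControl libraries. Of 18 markers of urothelial and other epithelial cells, KRT7, KRT8, KRT18, PPARG and FOXA1 were measured, with a summed level of 124 to 142 FPKM in shBLACAT3 libraries and 179.8 to 211 in shControl libraries. The other 13, among them GATA3, EPCAM and the uroplakins, were not analysed here. Of 9 leukocyte markers CD68 alone was measured, at 0.00379 to 0.624 FPKM in shBLACAT3 libraries and 0.686 to 1.21 in shControl libraries, and of 6 endothelial markers 0 were. A sum follows its most abundant genes, and the direction of each epithelial marker by itself is not given here. The part of the lower epithelial sum and CD68 level in the results on the IGF genes was not tested. In such bulk RNA, fewer cells that make a transcript and less of it per cell cannot be told apart. BLACAT3 itself was not analysed here, so the group labels were not checked against its level.

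Of the 3 binding protein genes, IGFBP3 and IGFBP6 were lower in shBLACAT3 cells and IGFBP4 was nearly level between the groups. Their promoters are shown so that the sequences around the starts of these related genes can be set side by side. Promoters of 5 of the 6 genes, all but IGF2, were found in the RefSeq table (GRCh38.p14). Each holds 250 bases before and 50 after the start of the gene, on the strand of the gene, 5′ to 3′. Capitals mark the TATA box TATAAA, the related TATATA and the GC box GGGCGG or its reverse complement CCGCCC. The windows are chr7:45921223-45921522 on the minus strand for IGFBP3, chr12:53097417-53097716 on the plus strand for IGFBP6 and chr17:40443200-40443499 on the plus strand for IGFBP4.
IGFBP3: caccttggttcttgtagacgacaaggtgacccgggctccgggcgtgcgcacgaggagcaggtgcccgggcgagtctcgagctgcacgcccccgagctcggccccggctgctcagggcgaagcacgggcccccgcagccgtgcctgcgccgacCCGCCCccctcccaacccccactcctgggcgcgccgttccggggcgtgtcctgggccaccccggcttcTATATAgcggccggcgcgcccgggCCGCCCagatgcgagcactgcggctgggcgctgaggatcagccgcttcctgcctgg
IGFBP6: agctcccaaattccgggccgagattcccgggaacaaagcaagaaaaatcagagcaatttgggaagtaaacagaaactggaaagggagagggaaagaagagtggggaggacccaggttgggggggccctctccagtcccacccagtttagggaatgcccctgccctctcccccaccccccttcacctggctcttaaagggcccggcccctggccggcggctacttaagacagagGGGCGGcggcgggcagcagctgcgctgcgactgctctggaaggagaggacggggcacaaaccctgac
IGFBP4: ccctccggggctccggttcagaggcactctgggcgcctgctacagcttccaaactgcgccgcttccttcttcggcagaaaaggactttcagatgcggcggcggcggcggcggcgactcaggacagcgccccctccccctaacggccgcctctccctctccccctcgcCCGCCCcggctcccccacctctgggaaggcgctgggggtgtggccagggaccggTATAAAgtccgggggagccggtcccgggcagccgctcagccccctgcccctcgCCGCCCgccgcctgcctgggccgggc
On either strand, IGFBP4 held 1 TATAAA and IGFBP3 held 1 TATATA, each about 30 bases before the start, while the IGFBP6 window held neither. TATAAA was present in 11.5% and TATATA in 3.99% of the 35116 promoters of the same length in the table. The GC box occurred 2 times in IGFBP3, 1 time in IGFBP6 and 2 times in IGFBP4, and in 45.0% of all promoters. G and C made up 74.7% of the IGFBP3 window, 61.7% of the IGFBP6 window and 74.0% of the IGFBP4 window, against a median of 58.7% over all promoters. The AP-1 motif TGANTCA (in 7.71% of all promoters) and the CCAAT box CCAAT (34.6%) had no match in any of the 5 windows. The E-box CACGTG, in 7.26% of all promoters, occurred 3 times in IGF2R and in none of the other 4 windows. These are matches of letters in a window, and no binding was measured.

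IGF2 was higher in shBLACAT3 cells, in the opposite direction to the gene of IGFBP6, the binding protein that prefers it. IGF2 was listed at 9.29, 9.86 and 9.75 FPKM in shBLACAT3 replicates 1, 2 and 3, against 4.06, 2.37 and 3.01 FPKM in shControl replicates 1, 2 and 3. Every shBLACAT3 library was above every shControl library, and the shControl libraries were the more spread. The means were 9.63 ± 0.30 FPKM in shBLACAT3 cells and 3.15 ± 0.86 FPKM in shControl cells (SD, n = 3 each), a ratio of 3.06, with a difference of 1.38 (SE 0.15) on the log2(FPKM + 1) scale. All differences below are shBLACAT3 minus shControl on this scale, on which the change of a gene with low values appears smaller than it is. IGF2 shares its strand in GENCODE 29 with the overlapping readthrough gene INS-IGF2 and overlaps IGF2-AS on the other strand, and how fragments were divided among them is not given in the sources used here.

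**Figure D1:**
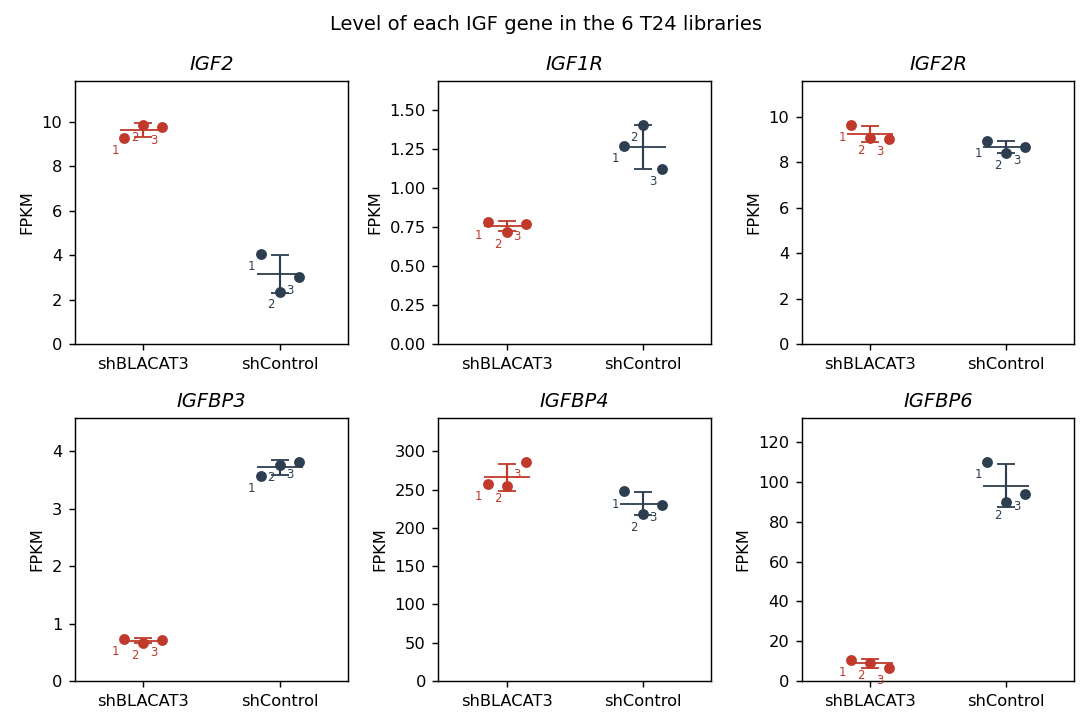
Level in FPKM (vertical axes, each from 0) of the 6 IGF genes in 3 shBLACAT3 and 3 shControl libraries. Points are libraries with their replicate number, and lines and bars are the mean and SD. IGF2 is higher in shBLACAT3 cells, IGFBP3 and IGFBP6 are far lower, and IGF2R and IGFBP4 lie close together in the groups.

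The receptor genes stood at unlike levels, and they did not behave alike. By mean level, IGF1R stood above 7.83% of all genes in the table in shBLACAT3 cells and above 12.1% in shControl cells. IGF2R stood above 62.3% in shBLACAT3 cells and above 60.6% in shControl cells. IGF1R, the signalling receptor, was listed at 0.780, 0.719 and 0.770 FPKM in shBLACAT3 replicates 1, 2 and 3, against 1.27, 1.41 and 1.12 FPKM in shControl replicates 1, 2 and 3. All 3 shBLACAT3 values lay under all 3 shControl values, with means of 0.756 ± 0.033 and 1.27 ± 0.14 FPKM (SD, n = 3 each) and a difference of -0.37 (SE 0.08). IGF2R, the clearance and sorting receptor, was listed at 9.64, 9.07 and 9.02 FPKM in shBLACAT3 replicates 1, 2 and 3, against 8.94, 8.43 and 8.65 FPKM in shControl replicates 1, 2 and 3. The IGF2R groups did not overlap either, but the lowest shBLACAT3 library, at 9.02, was next to the highest shControl library, at 8.94. The IGF2R means were 9.24 ± 0.34 FPKM in shBLACAT3 cells and 8.67 ± 0.26 FPKM in shControl cells (SD, n = 3 each), a difference of 0.08 (SE 0.07). Expressed as a ratio within each library, which no scaling of a library can move, IGF1R over IGF2R was 0.0819 ± 0.0032 in shBLACAT3 libraries and 0.146 ± 0.019 in shControl libraries (SD, n = 3 each).

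Among the binding proteins, IGFBP6 had the widest gap. It was listed at 10.8, 9.18 and 6.59 FPKM in shBLACAT3 replicates 1, 2 and 3, against 110.4, 89.8 and 94.2 FPKM in shControl replicates 1, 2 and 3. The highest shBLACAT3 library was far under the lowest shControl library. The shBLACAT3 mean of 8.85 ± 2.11 FPKM was 9.02% of the shControl mean of 98.1 ± 10.8 FPKM (SD, n = 3 each), a difference of -3.35 (SE 0.17). By mean level, IGFBP6 stood above 61.1% of all genes in the table in shBLACAT3 cells and above 97.5% in shControl cells.

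IGFBP3 was also lower in shBLACAT3 cells, at a much smaller level than IGFBP6. It was listed at 0.737, 0.656 and 0.713 FPKM in shBLACAT3 replicates 1, 2 and 3, against 3.58, 3.76 and 3.82 FPKM in shControl replicates 1, 2 and 3. Libraries of a group lay close together and the groups were wide apart, with means of 0.702 ± 0.041 FPKM in shBLACAT3 cells and 3.72 ± 0.13 FPKM in shControl cells (SD, n = 3 each). The shBLACAT3 mean was 18.9% of the shControl mean, and the difference was -1.47 (SE 0.07). The level of IGFBP3 in shBLACAT3 cells was above that of 7.01% of genes in the table, against 35.9% in shControl cells.

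IGFBP4 was by far the most abundant of the 6 genes and nearly level between the groups. It was listed at 258, 255 and 287 FPKM in shBLACAT3 replicates 1, 2 and 3, against 248, 218 and 230.2 FPKM in shControl replicates 1, 2 and 3. The shBLACAT3 libraries were all higher, though replicate 2 at 255 was near shControl replicate 1 at 248. The means were 266 ± 17.6 FPKM in shBLACAT3 cells and 232 ± 15.0 FPKM in shControl cells (SD, n = 3 each), a difference of 0.20 (SE 0.07).

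The order of the 6 levels differed between the groups. In shBLACAT3 cells IGFBP4 came first, followed by IGF2, IGF2R and IGFBP6. The range of the IGF2 libraries overlapped that of IGF2R there, and the range of IGF2R overlapped that of IGFBP6. IGF1R and IGFBP3 came last in shBLACAT3 cells, with overlapping ranges. In shControl cells the order was IGFBP4, IGFBP6, IGF2R, IGFBP3, IGF2 and IGF1R, and IGFBP3 and IGF2 were the only neighbours there whose ranges overlapped. IGFBP4 therefore made up 96.5 ± 0.92% of the summed FPKM of the 3 binding protein genes in shBLACAT3 libraries, against 69.5 ± 0.90% in shControl libraries (SD, n = 3 each). IGFBP6 made up 3.24 ± 0.90% of that sum in shBLACAT3 libraries and 29.4 ± 1.01% in shControl libraries (SD, n = 3 each). The sum itself was 276 ± 15.8 FPKM in shBLACAT3 libraries and 334 ± 25.6 FPKM in shControl libraries (SD, n = 3 each).

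**Figure D2:**
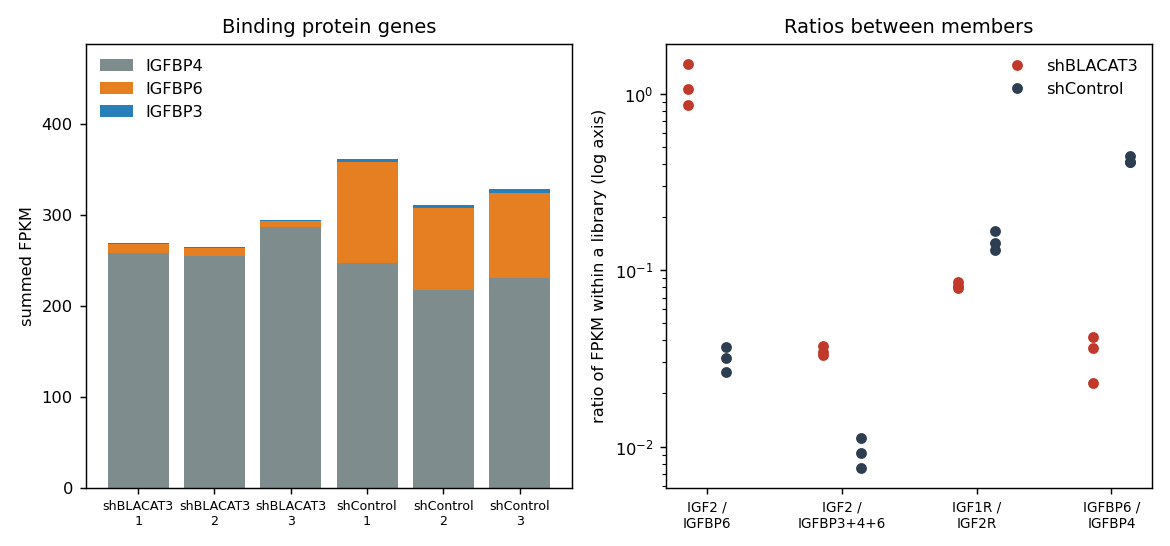
Left, summed FPKM of IGFBP4, IGFBP6 and IGFBP3 in each library, stacked from 0. Right, ratios of FPKM within each library on a log axis, with 1 point per library. IGFBP4 makes up nearly all of the sum in shBLACAT3 libraries, and IGF2 over IGFBP6 lies between 0.862 and 1.48 there, against 0.0263 to 0.0368 in shControl libraries.

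Set against the binding protein genes within each library, IGF2 stood higher in shBLACAT3 libraries by a factor that depended on the gene. IGF2 over IGFBP6 was 0.862, 1.07 and 1.48 in shBLACAT3 replicates 1, 2 and 3, against 0.0368, 0.0263 and 0.0319 in shControl replicates 1, 2 and 3. The mean ratio was 35.9 times as high in shBLACAT3 libraries, with IGF2 transcript at about the level of IGFBP6 transcript there. IGF2 over the sum of IGFBP3, IGFBP4 and IGFBP6 was 0.0350 ± 0.0021 in shBLACAT3 libraries and 0.0093 ± 0.0018 in shControl libraries (SD, n = 3 each), a ratio of the means of 3.75. IGF2 over IGFBP4, the most abundant of the 3, was 0.0362 ± 0.0024 in shBLACAT3 libraries and 0.0134 ± 0.0028 in shControl libraries (SD, n = 3 each), a ratio of the means of 2.70, against 3.06 for IGF2 by itself. IGF2 over IGFBP3 was 13.8 ± 1.21 in shBLACAT3 libraries and 0.851 ± 0.260 in shControl libraries (SD, n = 3 each). IGFBP6 over IGFBP4 was 0.0336 ± 0.0096 in shBLACAT3 libraries and 0.422 ± 0.020 in shControl libraries (SD, n = 3 each). These are ratios of transcript levels, and no protein was measured.

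For reference to the rest of the transcriptome, limma was run over the 10008 genes that averaged 1 FPKM or more, with Benjamini-Hochberg adjustment and a threshold of 0.05. It called 938 genes (9.37%), 257 higher (2.57%) and 681 lower (6.8%) in shBLACAT3 cells. The 6 IGF genes all passed the filter on the mean level, IGF1R narrowly with a mean of 1.01 FPKM over the libraries. IGF1R and IGFBP3 were under 1 FPKM in shBLACAT3 cells and passed through their shControl libraries. Of the 6, 4 were among the genes called, IGF2 as higher and IGF1R, IGFBP3 and IGFBP6 as lower, and IGF2R and IGFBP4 were not. Each of the 6 had groups without overlap, as had 32.8% of all genes tested. Because the genes were listed with this comparison known, nothing is read from these counts or from the ranks that follow. By size of the difference, IGF2 was number 8, IGFBP4 number 1693 and IGF2R number 3388 from the top. Counted from the bottom, IGFBP6 was number 11, IGFBP3 number 53 and IGF1R number 953.

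IGF1R was not called when any 1 of the 6 libraries was left out, with differences of -0.41 to -0.32. IGF1R was also not called under quantile normalization of the libraries, where its difference was -0.21. IGFBP4 was called as higher in that setting, with a difference of 0.23.

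**Figure D3:**
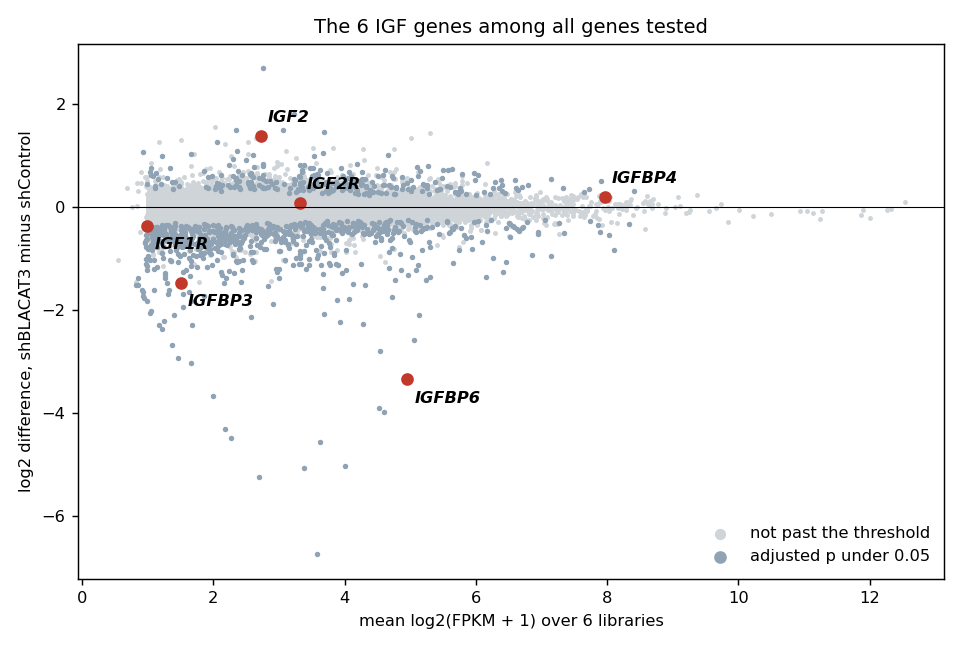
Mean log2(FPKM + 1) over the 6 libraries (horizontal axis) against the log2 difference, shBLACAT3 minus shControl (vertical axis), for all 10008 genes tested. Each small point is a gene, darker where its adjusted p is under 0.05. The 6 IGF genes are in red, with IGF2 at 1.38, IGFBP3 at -1.47 and IGFBP6 at -3.35.

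**Figure D4:**
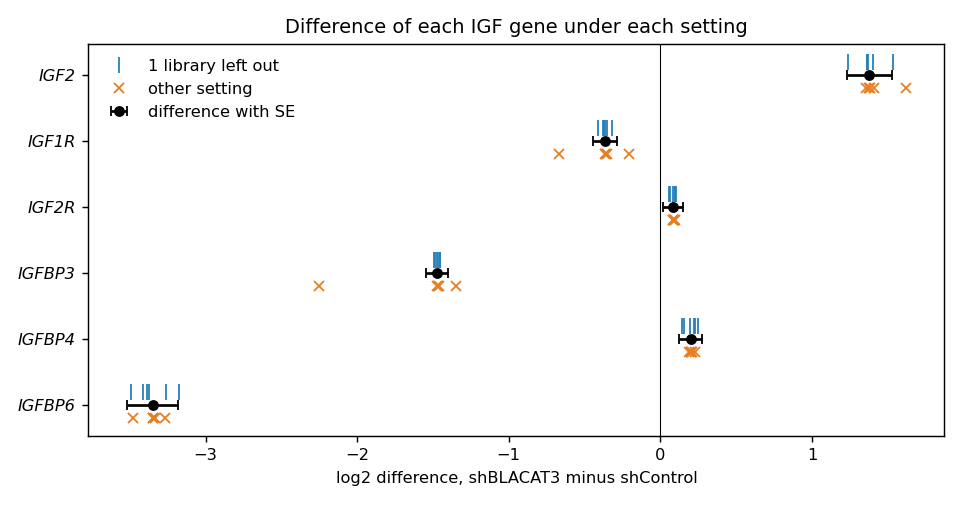
Difference of each IGF gene on the log2 scale (horizontal axis) with its SE (black), when each library was left out (blue) and under the other settings (orange). All values of IGF2 lie above 0 and all values of IGF1R, IGFBP3 and IGFBP6 under 0, and IGFBP3 moves most, to -2.25 with a pseudocount of 0.1.

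Genes of the same pathway were taken from 10 lists, in which 192 genes other than the 6 were listed, 139 were measured and 130 were tested. Of these 130, limma called 15 (11.5%, against 9.37% of all genes tested), 6 higher and 9 lower in shBLACAT3 cells, and the median difference was 0.016, against -0.0025 over all genes. The lists were written with earlier results of these data known.

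Of the other receptors and binding proteins, INSR and IGFBP7 were tested and neither was called. INSR, the insulin receptor, whose isoform A also binds IGF2, averaged 0.987 ± 0.167 FPKM in shBLACAT3 cells and 1.24 ± 0.060 FPKM in shControl cells (SD, n = 3 each), with an adjusted p of 0.26 in limma. IGFBP7, a distant relative with low affinity for IGFs, averaged 40.3 ± 2.31 FPKM in shBLACAT3 cells and 48.8 ± 3.57 FPKM in shControl cells (SD, n = 3 each), a difference of -0.27 (SE 0.08, adjusted p 0.080 in limma). IGF1, IGFBP2, IGFBP5 and the other listed genes of this group were not analysed here.

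In the list of genes that cut binding proteins, restrain that cutting or process pro-IGF2, 4 of only 8 tested members were called. The share called over all genes tested was 9.37%. Of the 4 genes, 1 was higher and 3 were lower, and the median of the list was -0.26. STC1 and STC2 encode stanniocalcins, secreted inhibitors of PAPPA, and they moved in opposite directions. STC1 was listed at 9.89, 9.07 and 8.02 FPKM in shBLACAT3 replicates 1, 2 and 3, against 22.9, 24.9 and 22.1 FPKM in shControl replicates 1, 2 and 3, and fell by 1.28 (SE 0.09, adjusted p 0.000459 in limma). STC2 was listed at 60.2, 54.1 and 57.4 FPKM in shBLACAT3 replicates 1, 2 and 3, against 33.0, 34.2 and 35.0 FPKM in shControl replicates 1, 2 and 3, and rose with a difference of 0.73 (SE 0.06, adjusted p 0.000959 in limma). The groups did not overlap in either gene, as in 32.8% of all genes tested. HTRA1, a secreted serine protease that can cut IGF binding proteins, averaged 1.93 ± 0.49 FPKM in shBLACAT3 cells and 4.97 ± 0.85 FPKM in shControl cells (SD, n = 3 each), and fell by 1.03 (SE 0.16, adjusted p 0.011 in limma). FURIN, a proprotein convertase, fell to 10.4 ± 1.18 FPKM in shBLACAT3 cells, against 14.8 ± 0.72 FPKM in shControl cells (SD, n = 3 each; adjusted p 0.026 in limma). PAPPA and PAPPA2 were not analysed here.

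**Figure D5:**
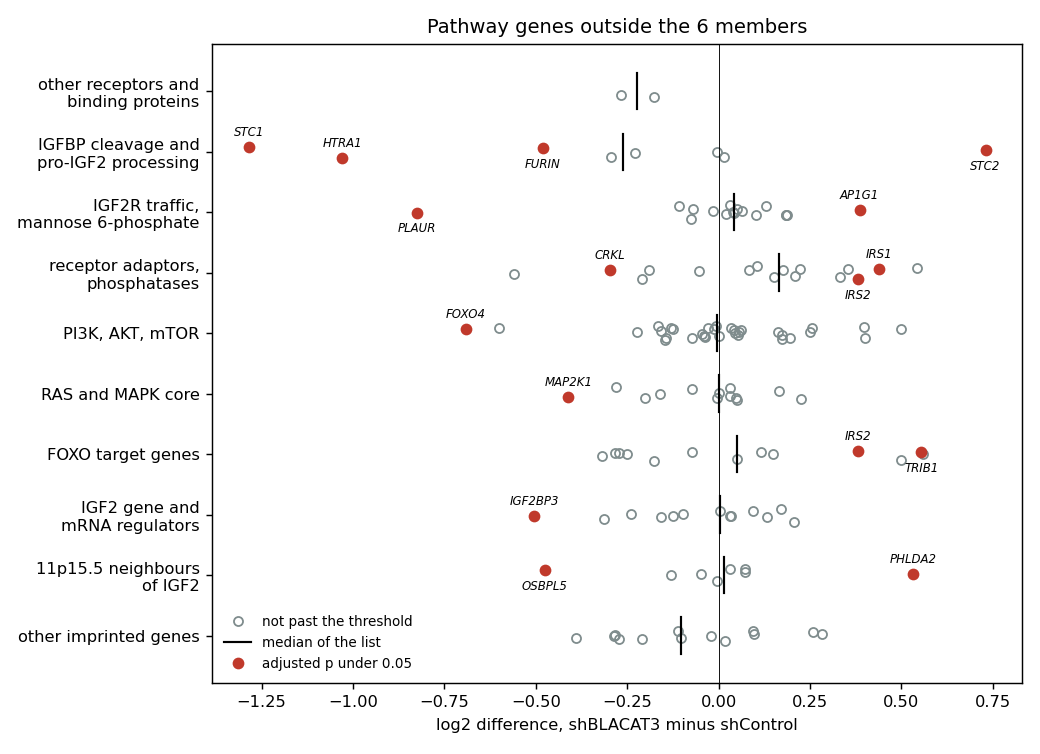
Log2 difference, shBLACAT3 minus shControl (horizontal axis), of the tested genes of 10 pathway lists outside the 6 IGF genes. Filled points are genes with an adjusted p under 0.05 in limma, open points the rest, and black ticks the median of each list. On this log2(FPKM + 1) scale STC1 is at -1.28 and STC2 at 0.73.

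Of 17 genes of IGF2R traffic and the mannose 6-phosphate tag, 2 were called (11.8%, against 9.37% of all genes tested). They were 1 in each direction, and the median of the list was 0.04. PLAUR, the urokinase receptor, which IGF2R can bind, fell to 11.4 ± 3.05 FPKM in shBLACAT3 cells, against 20.6 ± 2.25 FPKM in shControl cells (SD, n = 3 each; adjusted p 0.039 in limma). AP1G1, a subunit of the clathrin adaptor that carries IGF2R from the Golgi, rose to 22.0 ± 0.80 FPKM in shBLACAT3 cells, against 16.6 ± 0.62 FPKM in shControl cells (SD, n = 3 each; adjusted p 0.013 in limma).

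Of 16 adaptors and phosphatases of the receptors, 3 were called (18.8%, against 9.37% of all genes tested). They were 2 higher and 1 lower, and the median of the list was 0.16. Both measured insulin receptor substrate genes rose. IRS1 was listed at 4.15, 4.53 and 4.53 FPKM in shBLACAT3 replicates 1, 2 and 3, against 3.09, 3.12 and 2.76 FPKM in shControl replicates 1, 2 and 3, a difference of 0.44 (SE 0.08, adjusted p 0.021 in limma). IRS2 was listed at 17.7, 16.9 and 16.6 FPKM in shBLACAT3 replicates 1, 2 and 3, against 13.0, 12.9 and 12.7 FPKM in shControl replicates 1, 2 and 3, a difference of 0.38 (SE 0.06, adjusted p 0.012 in limma). The groups did not overlap in either gene, as in 32.8% of all genes tested. CRKL, an SH2 and SH3 adaptor, fell by 0.30 (SE 0.06, adjusted p 0.034 in limma).

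Of 32 genes of the PI3K, AKT and mTOR branch 1 was lower and 0 were higher (3.12% called, against 9.37% of all genes tested), with a median of -0.0036. It was FOXO4, a transcription factor that AKT keeps out of the nucleus, at 0.540 ± 0.138 FPKM in shBLACAT3 cells and 1.49 ± 0.29 FPKM in shControl cells (SD, n = 3 each; adjusted p 0.016 in limma). FOXO4 was under 1 FPKM in shBLACAT3 cells and passed the filter on the mean level through its shControl libraries. Of 13 genes of the RAS and MAPK core 1 was lower (7.69% called), MAP2K1, the kinase MEK1, at 22.5 ± 0.86 FPKM in shBLACAT3 cells and 30.3 ± 0.89 FPKM in shControl cells (SD, n = 3 each; adjusted p 0.0086 in limma). Of 13 target genes of FOXO factors, which IGF signalling holds down, 2 were higher and 0 lower (15.4% called), with a median of 0.05. They were IRS2 again and TRIB1, a pseudokinase, at 22.2 ± 0.61 FPKM in shBLACAT3 cells and 14.8 ± 0.73 FPKM in shControl cells (SD, n = 3 each; adjusted p 0.0033 in limma).

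Among 13 regulators of the IGF2 gene or its mRNA, 1 was lower and 0 were higher, with a median of 0.0028. The share called was 7.69%, against 9.37% of all genes tested. IGF2BP3, 1 of 3 related proteins that bind IGF2 mRNA, was listed at 8.98, 8.53 and 7.75 FPKM in shBLACAT3 replicates 1, 2 and 3, against 11.9, 13.5 and 11.7 FPKM in shControl replicates 1, 2 and 3. It fell by 0.50 (SE 0.09, adjusted p 0.016 in limma). IGF2BP1 averaged 5.88 ± 0.23 FPKM in shBLACAT3 cells and 6.35 ± 0.083 FPKM in shControl cells, and IGF2BP2 averaged 40.0 ± 1.08 FPKM in shBLACAT3 cells and 39.9 ± 2.71 FPKM in shControl cells (SD, n = 3 each), and neither was called (adjusted p 0.42 and 0.99 in limma).

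Of 10 measured neighbours of IGF2 in the imprinted region 11p15.5, 8 were tested. PHLDA2 was higher and OSBPL5 lower (25.0% called, against 9.37% of all genes tested), with a median of 0.014. CDKN1C and SLC22A18 averaged under 1 FPKM over the libraries and were not tested. CDKN1C averaged 0.429 FPKM in shBLACAT3 cells and 0.682 in shControl cells. SLC22A18 averaged 0.619 FPKM in shBLACAT3 cells and 1.15 in shControl cells. PHLDA2, an imprinted gene that restrains placental growth, averaged 75.5 ± 6.95 FPKM in shBLACAT3 cells and 51.9 ± 4.12 FPKM in shControl cells (SD, n = 3 each; adjusted p 0.016 in limma). OSBPL5, a lipid transfer protein gene, averaged 1.17 ± 0.22 FPKM in shBLACAT3 cells and 2.01 ± 0.068 FPKM in shControl cells (SD, n = 3 each; adjusted p 0.029 in limma). H19 and IGF2-AS were not analysed here. Of 13 imprinted genes elsewhere in the genome 0 were called, against 9.37% of all genes tested, with a median of -0.10. SNRPN, a spliceosome protein gene, had the smallest p of these, with a difference of -0.29 (SE 0.09, adjusted p 0.094 in limma).

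Of the 15 pathway genes called, 11 lost their call when some library was left out. The other 4 (STC1, STC2, HTRA1 and TRIB1) were called whichever library was left out. Calls were also lost among all genes. Of the 938 genes called, 370, 423 and 418 were also called without shControl replicates 1, 2 and 3. Without shBLACAT3 replicates 1, 2 and 3, 500, 621 and 796 of the 938 were. MAP2K1 was not called without shControl replicate 1 (adjusted p 0.0504 in limma), nor AP1G1 without shControl replicate 1 or 3 (0.056 to 0.064). IGF2BP3 and IRS2 were not called when any 1 shControl replicate was left out (0.0502 to 0.063 and 0.055 to 0.060). FOXO4 and PHLDA2 were not called without shBLACAT3 replicate 1 or shControl replicate 1 or 2 (0.051 to 0.055 for both). FURIN was not called without shBLACAT3 replicate 1 or any shControl replicate (0.062 to 0.106), and IRS1 and OSBPL5 were not called without shBLACAT3 replicate 2 or any shControl replicate (0.052 to 0.088 and 0.053 to 0.103). CRKL and PLAUR kept their calls only without shBLACAT3 replicate 3, with adjusted p from 0.061 to 0.129 and from 0.055 to 0.136 in the other 5 settings.

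The genes outside the 6 whose pattern over the 6 libraries was most like each member were found by Pearson's correlation of log2(FPKM + 1), as a description over libraries that fall into 2 groups. For IGF2 they were KLF11 (r = 0.998), GATC (0.996) and FECH (0.996), whose differences of 0.36, 0.24 and 0.32 were much smaller. For IGF1R they were NUMBL (0.994), SLC44A2 (0.992) and LOX (0.990). For IGF2R they were DHX33 (0.997), HGS (0.994) and SIAH1 (0.989). For IGFBP3 they included the interferon-induced gene IFIT2 (0.999) and the death receptor gene TNFRSF10B (0.999), with differences of -5.04 and -0.40. For IGFBP4 they were OAZ1 (0.986), BRI3 (0.979) and ERFE (0.978). For IGFBP6 they were FZD4 (0.999), APOL6 (0.999) and ABTB2 (0.999), with differences of -0.92, -0.68 and -0.61.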

How the data were processed

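Libraries were made from total RNA with a strand-aware kit, per the labels' protocols. StringTie, cutadapt and HISAT2 2.1.0 are listed without their roles, per the submitters' processing notes. Not given in the sources used here are genome build, annotation and strand setting. The deposited values are taken as FPKM because of these tools and because the columns hold decimals with unequal totals. NC columns were read as shControl and SH columns as shBLACAT3, the digit being the title's replicate number. In every row the higher group mean was at least 0.5 FPKM, so genes under that level were not analysed here.

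Of 11081 rows, 11007 were matched to a symbol by Ensembl identifier, and 4 rows sharing 2 symbols were summed. The 10008 genes averaging 1 FPKM or more were tested with limma 3.58.1 (R 4.3.3) on log2(FPKM + 1), with a model of group alone, a mean-variance trend, two-sided p, Benjamini-Hochberg adjustment and a threshold of 0.05. SDs are over libraries. The labels do not say whether replicates were separate cultures, so p-values cover only library-to-library spread, which may be technical. FPKM holds no counts, so no counting interval is given. The test was checked on simulated data.

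The members and the gene lists were chosen with earlier results of these data known. The genes to name were, from each list, up to 4 genes past the threshold with the largest absolute difference or, where none passed, the gene with the smallest p, besides the members, INSR, IRS1, IRS2 and the IGF2BP genes, and the 3 genes most like each member. Not every gene that this rule takes is reported here. Alternatives were a block for the replicate number, a lower pseudocount (0.1), no filter or one at 0.1 FPKM, scaling to 1 median, quantile normalization, limma without the trend, array weights, and each library left out, with the tested genes kept as they were. Figures were drawn with matplotlib 3.10.9.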

Additional observations from a re-analysis of the deposited data

How the results depend on the processing

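No difference of the 6 IGF genes changed its sign under any setting run. With a pseudocount of 0.1 the differences were 1.62 for IGF2, -0.67 for IGF1R and -2.25 for IGFBP3, since a smaller pseudocount weighs low values more. Under quantile normalization they were -0.21 for IGF1R and -1.34 for IGFBP3, and the cause was not tested. With 1 library left out, the difference was 1.24 to 1.53 for IGF2, -0.41 to -0.32 for IGF1R, 0.06 to 0.10 for IGF2R, -1.49 to -1.45 for IGFBP3, 0.15 to 0.25 for IGFBP4 and -3.49 to -3.17 for IGFBP6. The log2 ratio of IGF2 over the summed binding proteins differed by 1.78 to 2.07, and that of IGF1R over IGF2R by -0.91 to -0.73.

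The count of all genes called ranged from 387 without shControl replicate 1 to 1315 without shBLACAT3 replicate 3, and it was 444 and 441 without shControl replicates 2 and 3 and 542 without shBLACAT3 replicate 1. The count of pathway genes called ranged from 4 without shControl replicate 1 to 20 without shBLACAT3 replicate 3, with 2 to 10 higher and 2 to 10 lower.

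Same-numbered libraries deviated from their group means with correlations of 0.10, 0.117 and 0.090, not all over 0.1, so the numbers were not taken as pairs. Each library correlated best with its own number, which is a hint from the data and not the design, and whether same-numbered libraries share an origin is not given in the labels. With the replicate number as a block, 612 genes were called, against 938, and IGF1R, IRS1, PLAUR, CRKL and OSBPL5 were not. Median scaling ended the call of CRKL.

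FPKM values hold no counts, so how far depth limits low levels such as those of IGF1R and IGFBP3 cannot be given.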
